A study of Cricetulus griseus with 24 samples.

Results

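Sialylation genes were followed in 3 Chinese hamster ovary (CHO) cell lines at 2 growth phases. The 10 genes were taken by symbol from the 28037 genes of the deposited count table: Gne, Nans, Cmas and Slc35a1, which make and carry the sugar donor, the sialyltransferases St3gal1, St3gal3, St3gal4 and St3gal6, and the sialidases Neu1 and Neu3. A0 is a low-producing parental line of CHO DG44 cells that secretes a humanized IgG from 2 co-transfected plasmids, one with its heavy chain and the other with its light chain and a neomycin resistance gene. A1 is its progeny after amplification by stepwise selection in methotrexate, and makes more antibody. CHO-S is another CHO line, and the titles of its samples also carry the word NDST, whose meaning is not given in the sources used here. A0 had 4 cultures and A1 and CHO-S had 3 each, at exponential and at stationary phase, which gave 20 cultures. A0 and A1 were grown in suspension in a serum-free medium with hydrolysate and insulin. Each line stands for 1 selected line, so cultures are replicates of that line and not of amplification.

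Sialic acid is the charged sugar that ends many N-glycans and O-glycans of secreted and membrane proteins. It is built in the cytosol from UDP-GlcNAc, activated to CMP-sialic acid in the nucleus, carried into the Golgi and attached there to galactose by sialyltransferases, while sialidases remove it in lysosomes and at membranes. In CHO cells the terminal sialic acid of N-glycans is attached by enzymes of the St3gal family, and sialylation is followed as a quality attribute of recombinant glycoproteins.

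The libraries held 1038026 to 14652646 reads counted on genes (median 12166034.5 over 24 libraries). The lowest total belonged to CHO-S stationary culture 1, in which 49.8% of the reads lay in the summary rows of the counting program and not on genes. Reads placed on no feature made up 32.8% there, against 18.2% and 18.1% in the other CHO-S stationary cultures. The next lowest total was 6532373, in A1 stationary culture 1. CHO-S stationary culture 1 stood apart from the other CHO-S stationary cultures in several of the genes described here. The counts of members called in comparisons that hold it are given with and without it, and the values of single genes in part only. The share of reads not aligned was 3.13% to 4.85% in A0 and 7.49% to 8.64% in A1 at exponential phase, and 6.43% to 9.41% and 10.3% to 11.5% at stationary phase. Its part in the differences was not tested. Vim and Actb, used by fibroblast-like cells, were at 728 CPM or more in every group's lowest culture. Of 6 markers of leukocytes, endothelium, liver and neurons, the summed level was 1.39 to 2.67 CPM at exponential phase over all lines, 1.4 to 3.7 CPM in A0 and A1 at stationary phase and 3.09 to 7.99 CPM in CHO-S at stationary phase. Ptprc and Cd3e, which define leukocytes, had at most 2 counts in any culture. The highest of the 6 markers in CHO-S at stationary phase was Pecam1, of endothelium, at 2.06 to 7.18 CPM. Why Pecam1 was detected was not tested.

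Levels are TMM-scaled CPM, that is counts relative to the total counted on genes in the culture, rescaled to a common total, given as the mean ± SD over cultures. Differences are log2 fold changes ± standard error (SE) from the quasi-likelihood test of edgeR, with p-values adjusted by Benjamini-Hochberg over all genes tested and a threshold of 0.05. Levels of different genes were not compared, since transcript lengths were not used here. RNA came from whole cultures, so fewer cells with a transcript and less transcript per cell cannot be told apart.

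St3gal6, the only member without a measurable level, had 5 counts in all over the 20 cultures and at most 2 in any culture. A count of 0 allows up to 3 counts, which is 0.115 CPM in the deepest culture and 3.1 CPM in CHO-S stationary culture 1. No fold is given for it, and the counts of members below are of the other 9 genes. Those 9 had 5 counts or more in every culture other than CHO-S stationary culture 1, where the lowest was Neu3 with 2 counts.

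**Figure D1:**
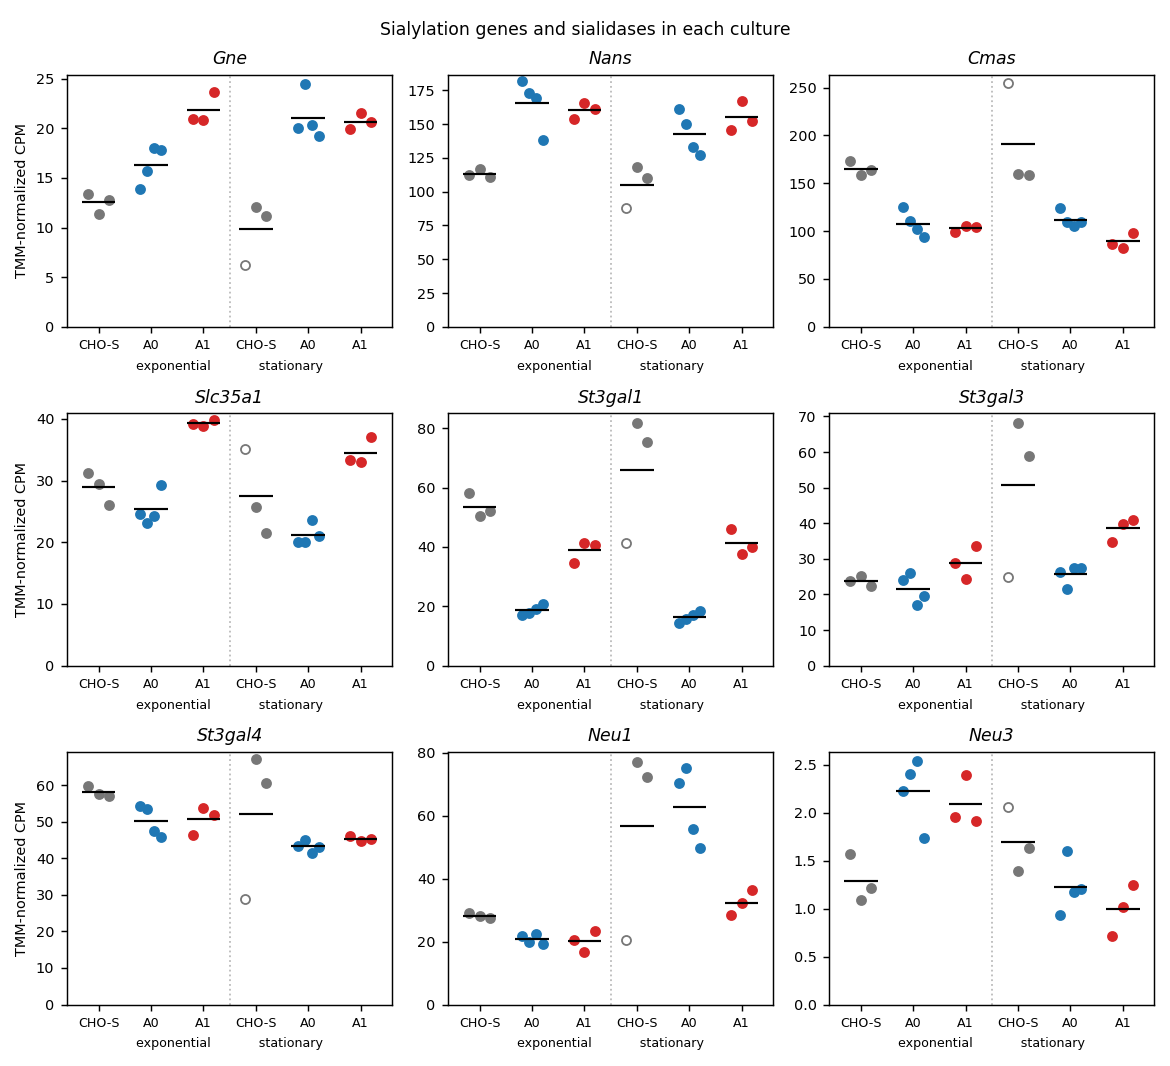
TMM-normalized CPM (vertical axes, from 0) of 9 sialylation genes in each culture of CHO-S (grey), A0 (blue) and A1 (red) at exponential phase, left of the dotted line, and stationary phase, right of it. Points are cultures, bars are group means, and the open point is CHO-S stationary culture 1. St3gal1 and Slc35a1 of A1 lie above A0 at both phases, and Neu1 of A0 reaches 49.8 to 75.0 CPM at stationary phase.

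The first question was how the amplified line differs from its parent. At exponential phase, 3 of the 9 members were higher in A1 (Gne, Slc35a1 and St3gal1) and 0 were lower, while over all 19946 genes tested 12% were higher and 13.8% were lower. The count of lower members was also 0 by DESeq2 and in edgeR before adjustment. The median log2 fold change was 0.01 over the members and -0.04 over all genes, and the median size of the change, sign left out, was 0.10 and 0.38. All genes here include those with as little as 1 count in 2 cultures, whose changes are noisier. The 2 sizes are therefore not alike, and no smaller change of the members is read from them. At stationary phase, 3 members were higher in A1 (Slc35a1, St3gal1 and St3gal3), where 16% of 19293 genes were higher. The 2 lower members were Cmas and Neu1, where 17.7% of all genes were lower. The medians at stationary phase were 0.06 over the members and -0.002 over all genes. With 9 genes, 1 call more or less moves such a share strongly, and nothing particular to the members is read from these counts. The p-values measure the spread between these cultures, whose independence the labels do not describe.

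**Figure D2:**
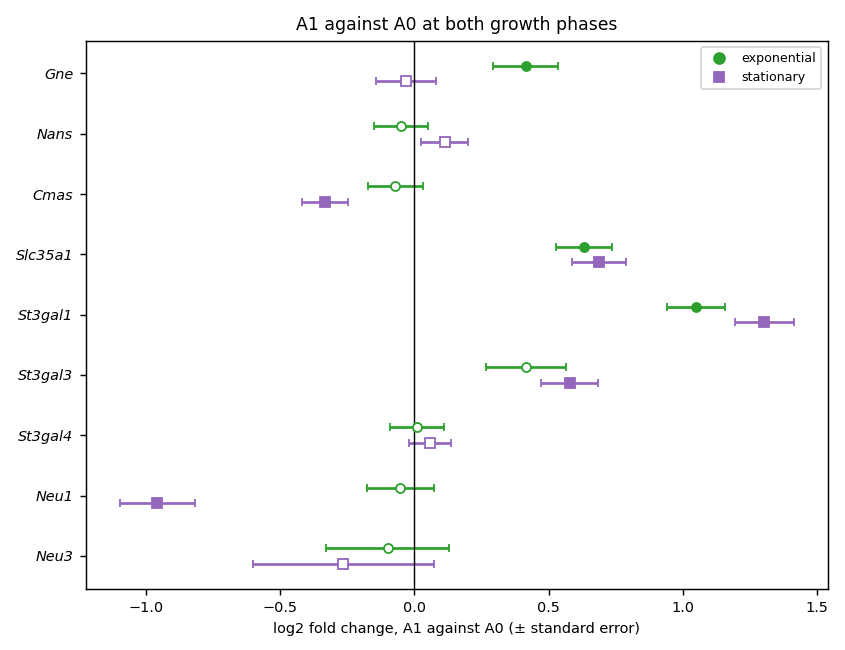
Log2 fold change of A1 against A0 (horizontal axis, bars are ± standard error) of 9 sialylation genes at exponential (circles) and stationary phase (squares). Filled symbols passed the threshold. St3gal1 is the farthest to the right at both phases (1.05 and 1.31), and Neu1 is near 0 at exponential phase and at -0.96 at stationary phase.

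Gne, the bifunctional epimerase and kinase that starts sialic acid synthesis, was at 13.9, 15.7, 18 and 17.8 CPM in the 4 A0 cultures at exponential phase and at 20.9, 20.8 and 23.7 CPM in the 3 A1 cultures. The groups did not overlap, with a log2 fold change of 0.42 ± 0.121 (adjusted p = 0.019). The call was lost without A0 culture 2 (adjusted p = 0.051) and without any one of the A1 cultures (adjusted p = 0.051 to 0.12). At stationary phase A0 was at 20, 24.5, 20.3 and 19.2 CPM and A1 at 19.9, 21.5 and 20.6 CPM, and the groups overlapped (-0.03 ± 0.113, adjusted p = 0.86). The difference between the phases in the A1 to A0 change was -0.45 ± 0.167 and missed the threshold (adjusted p = 0.10), but passed it with the culture as a block (-0.45, adjusted p = 0.044).

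Nans, the synthase that makes the phosphorylated sialic acid, was at 166 ± 19.2 CPM in A0 (SD, n = 4) and 160 ± 6.01 CPM in A1 (SD, n = 3) at exponential phase, and at 143 ± 15.7 and 155 ± 11 CPM at stationary phase. The groups overlapped at both phases, with log2 fold changes of -0.05 ± 0.101 and 0.11 ± 0.088 (adjusted p = 0.76 and 0.36). Cmas, which activates sialic acid to CMP-sialic acid, overlapped between the lines at exponential phase (108 ± 13.6 CPM in A0 and 103 ± 3.19 CPM in A1, adjusted p = 0.66). At stationary phase it was at 124, 109, 105 and 109 CPM in A0 and at 86.7, 82.5 and 98.4 CPM in A1. Every A1 culture was below every A0 culture, and the log2 fold change was -0.33 ± 0.085 (adjusted p = 0.0074). Without A1 culture 2 the call was lost (-0.27, adjusted p = 0.058), as it was in a fit of all 6 groups (-0.32, adjusted p = 0.085).

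Slc35a1, the transporter that carries CMP-sialic acid into the Golgi, was at 24.6, 23.2, 24.2 and 29.3 CPM in A0 at exponential phase and at 39.1, 38.8 and 39.9 CPM in A1. At stationary phase A0 was at 20.1, 20, 23.6 and 21.1 CPM and A1 at 33.3, 33.0 and 37.0 CPM. All A1 cultures lay above all A0 cultures at the same phase. The gene was 1.55-fold higher in A1 at exponential phase (log2 0.63 ± 0.103, adjusted p = 0.00041) and 1.61-fold higher at stationary phase (0.69 ± 0.1, adjusted p = 0.00011). Both calls held in every alternative.

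St3gal1, the sialyltransferase best known for O-glycans, had the largest change of the 9 members between A1 and A0 at both phases. It was at 17.2, 17.9, 19.1 and 20.9 CPM in A0 and at 34.6, 41.3 and 40.8 CPM in A1 at exponential phase. At stationary phase the A0 cultures were at 14.5, 15.6, 17.1 and 18.4 CPM and the A1 cultures at 45.9, 37.7 and 39.9 CPM. The groups were separated at both phases by more than their own ranges. The fold was 2.07 at exponential phase (log2 1.05 ± 0.107, adjusted p = 6e-06) and 2.47 at stationary phase (1.31 ± 0.11, adjusted p = 9.7e-07), and the calls held in every alternative.

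St3gal3, which acts on N-glycans, was at 24.2, 25.9, 17 and 19.5 CPM in A0 and at 28.9, 24.3 and 33.6 CPM in A1 at exponential phase. One A1 culture lay inside the range of A0, and the log2 fold change of 0.42 ± 0.151 missed the threshold (adjusted p = 0.055). Over the alternatives the adjusted p ran from 0.027 to 0.30, and DESeq2 called the gene (adjusted p = 0.045). At stationary phase A0 was at 26.4, 21.4, 27.4 and 27.5 CPM and A1 at 34.8, 39.9 and 40.9 CPM, without overlap. There it was 1.49-fold higher in A1 (0.58 ± 0.106, adjusted p = 0.00069). St3gal4, a main transferase of N-glycan sialic acid in CHO cells, overlapped between the lines at both phases. Its levels were 50.2 ± 4.3 CPM in A0 and 50.6 ± 3.85 CPM in A1 at exponential phase and 43.3 ± 1.46 and 45.4 ± 0.666 CPM at stationary phase (adjusted p = 0.96 and 0.62).

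The 3 detected members of the St3gal family also differed between the lines in how their reads were divided. St3gal2 and St3gal5, which are not members, were detected too and were left out of this division. At exponential phase St3gal2 was at 35.3 ± 1.84 CPM in A0 and 25.2 ± 1.58 CPM in A1. St3gal5 was at 45.2 ± 2.76 and 40.3 ± 1.28 CPM. At stationary phase St3gal2 was at 51.7 ± 4.01 CPM in A0 and 26.4 ± 1.78 CPM in A1, and St3gal5 at 37.1 ± 1.34 and 39.7 ± 0.948 CPM. The shares below are therefore not shares of the whole family. This division is in reads, not in molecules, since longer transcripts give more reads. St3gal1 took 20.9% ± 3.15 of the reads of the 3 genes in A0 (SD, n = 4) and 32.8% ± 1.61 in A1 (SD, n = 3) at exponential phase, and 19.2% ± 1.46 and 32.9% ± 2.93 at stationary phase. At both phases the lowest A1 culture (31.5% and 30.8%) was above the highest A0 culture (24.2% and 20.6%). The share of St3gal4 was 55.4% ± 1.77 in A0 and 42.8% ± 2.01 in A1 at exponential phase and 50.7% ± 3.1 and 36.3% ± 0.277 at stationary phase, while the shares of St3gal3 overlapped between A0 and A1. In CHO-S the share of St3gal1 was 39.5% ± 1.62 at exponential and 39.9% ± 3.14 at stationary phase (SD, n = 3). CHO-S stationary culture 1 had 92 reads on the 3 genes and a St3gal1 share of 43.5%, against 37.6% and 38.6% in the other CHO-S stationary cultures. These shares were not tested.

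**Figure D3:**
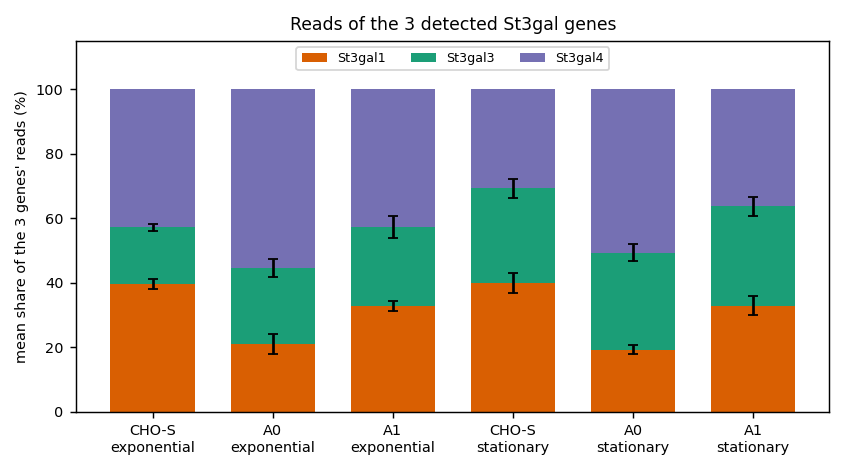
Mean share of the reads of St3gal1, St3gal3 and St3gal4 that fell on each gene (vertical axis, percent, stacked from 0 to 100) in CHO-S, A0 and A1 at each phase. Error bars are the SD over cultures of the St3gal1 share (lower) and of the St3gal3 share (upper). St3gal1 takes about 19.2% to 20.9% in A0, 32.8% to 32.9% in A1 and 39.5% to 39.9% in CHO-S.

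Neu1, the lysosomal sialidase, was at 21.7, 20, 22.3 and 19.1 CPM in A0 and at 20.4, 16.6 and 23.2 CPM in A1 at exponential phase, and the groups overlapped (log2 -0.05 ± 0.125, adjusted p = 0.79). At stationary phase it was at 70.5, 75.0, 55.8 and 49.8 CPM in A0 and at 28.3, 32.2 and 36.5 CPM in A1. The highest A1 culture was below the lowest A0 culture, and the level was 1.95-fold lower in A1 (-0.96 ± 0.14, adjusted p = 0.00012). The change in A1 against A0 differed between the phases by -0.91 ± 0.196 (adjusted p = 0.0044). Neu1 was the only 1 of the 9 members with such a difference, which 3.9% of 20953 genes had in the lower direction and 5.04% in the higher direction. The difference was not called in a fit of all 6 groups (-0.898, adjusted p = 0.065). Its value was negative in each alternative, from -1.01 to -0.79. A0 cultures 1 and 2 were the higher ones for Neu1 at stationary phase. Over all genes these 2 cultures lay closer to each other (chi-square per degree of freedom 3.96), as did cultures 3 and 4 (2.9), than the cultures of one pair to those of the other (17 to 20.7). What sets the pairs apart was not tested, and both pairs lay above every A1 culture for Neu1.

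Neu3, the sialidase of the plasma membrane, was the lowest of the 9 in counts, with 62 counts at most in a culture. It was at 2.23 ± 0.349 CPM in A0 and 2.09 ± 0.264 CPM in A1 at exponential phase and at 1.22 ± 0.276 and 0.994 ± 0.27 CPM at stationary phase. The lines overlapped at both phases (log2 -0.10 ± 0.229 and -0.27 ± 0.336, adjusted p = 0.78 and 0.59). With so few counts, only differences well above these standard errors were detectable.

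The second question was how the genes move from exponential to stationary phase within a line. In A0, 2 of the 9 members rose (Gne and Neu1), where 17.7% of 20267 genes rose, and 1 fell (Neu3), where 20.1% fell. Neu1 rose 2.99-fold (log2 1.58 ± 0.128, adjusted p = 1.4e-07), with every stationary culture above every exponential one. Gne rose by 0.35 ± 0.124 on the log2 scale (adjusted p = 0.035), a call lost without any one of exponential cultures 1 and 2 and stationary cultures 2 and 3 (adjusted p = 0.055 to 0.13). Neu3 fell from 2.23, 2.4, 2.54 and 1.74 CPM to 0.931, 1.60, 1.17 and 1.2 CPM, without overlap (-0.87 ± 0.247, adjusted p = 0.010). A0 cultures with the same number deviated together at both phases. With the culture number as a replicate block, 5 members were called: Neu1 (1.57, adjusted p = 6.2e-46), Gne (0.35, adjusted p = 0.0068) and Neu3 (-0.87, adjusted p = 0.0013) as before, and Nans (-0.23, adjusted p = 0.04) and Slc35a1 (-0.27, adjusted p = 0.039).

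In A1, 2 members rose (St3gal3 and Neu1), where 15.6% of 18548 genes rose, and 2 fell (Cmas and Neu3), where 17.8% fell. Neu1 rose 1.64-fold (log2 0.72 ± 0.11, adjusted p = 4.1e-06), and St3gal3 rose 1.36-fold (0.44 ± 0.098, adjusted p = 0.00062), both without overlap of the phases. In a fit of all 6 groups St3gal3 was not called (adjusted p = 0.17). Neu3 fell from 1.96, 2.39 and 1.91 CPM to 0.711, 1.02 and 1.25 CPM (-0.98 ± 0.312, adjusted p = 0.013). Its call was lost without exponential culture 2 (adjusted p = 0.058) or stationary culture 1 (adjusted p = 0.051) and with DESeq2 (adjusted p = 0.076). Cmas fell by 0.19 on the log2 scale, from 103 ± 3.19 to 89.2 ± 8.23 CPM (SE 0.068, adjusted p = 0.033). That call was lost in most alternatives, among them DESeq2 (-0.18, adjusted p = 0.075) and without exponential culture 2 or 3 or stationary culture 1 or 2 (adjusted p = 0.098 to 0.22). St3gal1 overlapped between the phases in A0 (log2 -0.20 ± 0.118, adjusted p = 0.20) and in A1 (0.09 ± 0.087, adjusted p = 0.49).

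In CHO-S, 1 member rose (St3gal3, 2.29-fold, log2 1.19 ± 0.278, adjusted p = 0.031), where 6.81% of 17367 genes rose, and 0 fell, where 6.48% fell. The St3gal3 call was lost when any single culture other than stationary culture 1 was left out (adjusted p = 0.13 to 0.17) and with a replicate block (adjusted p = 0.11). Stationary culture 1 stood apart from the other stationary cultures in several members. St3gal4 was at 28.9 CPM in it, against 57 to 59.9 CPM at exponential phase, and Cmas at 255 CPM, against 159 to 173 CPM. Neu1 was at 29.1, 28.1 and 27.6 CPM at exponential phase and at 20.6, 77.1 and 72.3 CPM at stationary phase, and St3gal3 was at 23.7, 25.1 and 22.5 CPM and at 24.8, 68.3 and 58.8 CPM. Culture 1 was thus the lowest of the stationary cultures for both genes and lay within or below the exponential range. Without it, 4 members rose (St3gal1, St3gal3, St3gal4 and Neu1), where 23.1% of 17319 genes rose, and 1 fell (Slc35a1), where 24.7% fell. That fit held 2 stationary cultures. Its estimate of the spread between cultures over all genes, a coefficient of variation, was 0.0341, against 0.186 with all cultures. Its small p-values rest on that lower estimate, after the culture that stood apart was left out. The values without culture 1 were 1.41 ± 0.07 for Neu1 (adjusted p = 8.2e-33), 1.44 ± 0.076 for St3gal3 (adjusted p = 8e-31) and 0.56 ± 0.063 for St3gal1 (adjusted p = 1e-12). Those of St3gal4 and Slc35a1 were 0.15 ± 0.064 (adjusted p = 0.046) and -0.26 ± 0.092 (adjusted p = 0.013). With all cultures, Neu1 was called in the fit of all 6 groups (1.18, adjusted p = 0.00027). Neu3, which fell in A0 and A1, was at 1.57, 1.09 and 1.22 CPM at exponential phase and at 2.06, 1.39 and 1.63 CPM at stationary phase in CHO-S (0.21 ± 0.292, adjusted p = 0.73, or 0.18 ± 0.352 and adjusted p = 0.72 without stationary culture 1). The difference between the lines in this change was not tested for CHO-S.

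The third comparison set A0 and A1 against CHO-S, so the lines share their control cultures. A0 and A1 come from another host than CHO-S. The host, the antibody plasmids, drug selection, any difference in culture conditions and whatever NDST marks in the CHO-S cultures cannot be told apart here. In A0 at exponential phase, 3 of the 9 members were higher than in CHO-S (Gne, Nans and Neu3), where 27.6% of 19966 genes were higher. The 3 lower members were Cmas, St3gal1 and Neu1, where 21.9% were lower. In A1 at the same phase all 9 differed from CHO-S, with 5 higher (Gne, Nans, Slc35a1, St3gal3 and Neu3), where 30% of 18488 genes were higher, and 4 lower (Cmas, St3gal1, St3gal4 and Neu1), where 27.1% were lower. The median log2 fold change was -0.18 in A0 and 0.28 in A1 over the members and 0.14 and 0.06 over all genes.

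**Figure D4:**
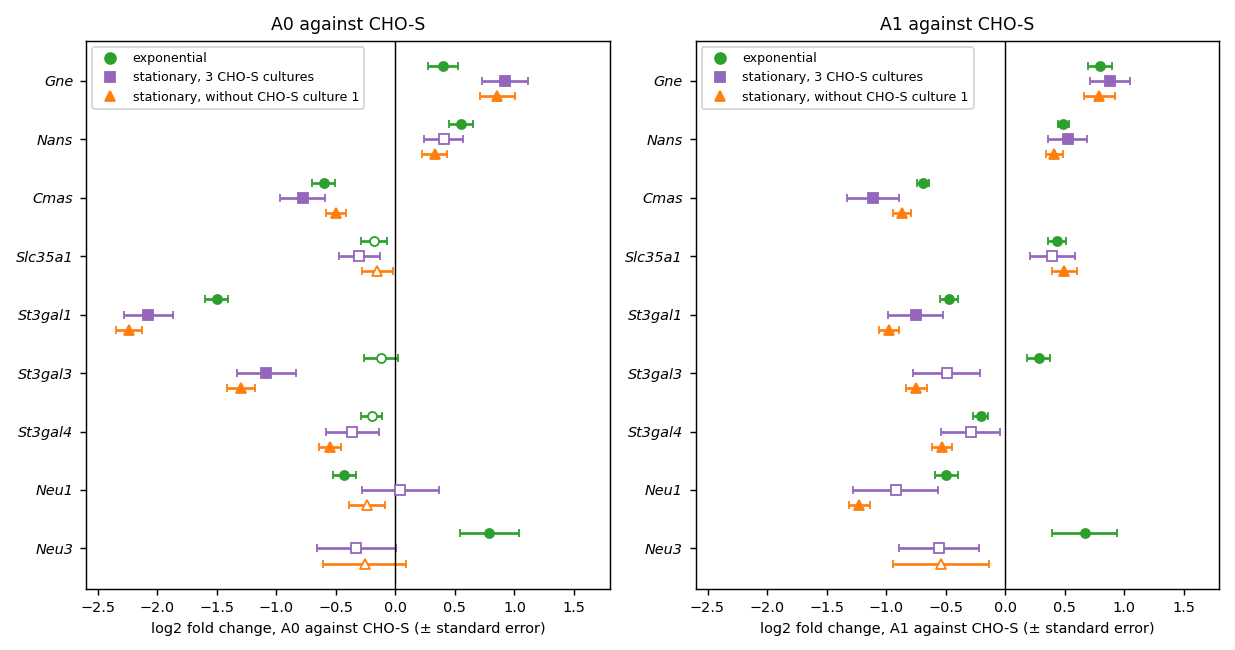
Log2 fold change against CHO-S (horizontal axes, bars are ± standard error) of 9 sialylation genes in A0 (left) and A1 (right) at exponential phase (circles), stationary phase with 3 CHO-S cultures (squares) and stationary phase without CHO-S culture 1 (triangles). Filled symbols passed the threshold. Gne and Nans lie to the right of 0 and Cmas and St3gal1 to the left in both lines, and St3gal1 of A0 is the farthest from 0 (-1.5, -2.08 and -2.24).

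Among the supply genes at exponential phase, Gne was at 13.4, 11.4 and 12.8 CPM in CHO-S, below every culture of A0 and A1. It was higher by 0.40 ± 0.126 in A0 (adjusted p = 0.017) and by 0.80 ± 0.099 in A1 (adjusted p = 2.4e-07). The A0 call was lost without CHO-S culture 2 (adjusted p = 0.10) or 3 (adjusted p = 0.057). Nans was at 112, 117 and 111 CPM in CHO-S and higher by 0.55 ± 0.1 in A0 (adjusted p = 3e-04) and 0.49 ± 0.047 in A1 (adjusted p = 4.1e-09). Cmas went the other way, at 173, 159 and 164 CPM in CHO-S, with -0.60 ± 0.1 in A0 (adjusted p = 0.00015) and -0.69 ± 0.049 in A1 (adjusted p = 1.6e-11). Slc35a1 was at 31.2, 29.5 and 26.1 CPM in CHO-S, inside the A0 range in part (-0.18 ± 0.11, adjusted p = 0.19) and below all A1 cultures (0.43 ± 0.075, adjusted p = 2.3e-05).

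Among the transferases, St3gal1 was at 58.2, 50.3 and 52.2 CPM in CHO-S at exponential phase, above every culture of the antibody lines. It was 2.83-fold lower in A0 (log2 -1.5 ± 0.099, adjusted p = 1.7e-08) and 1.38-fold lower in A1 (-0.47 ± 0.074, adjusted p = 7.5e-06). The order of its level was therefore A0, A1 and CHO-S, with each neighbouring pair apart. St3gal3 overlapped between CHO-S and both lines, and its call in A1 (0.28 ± 0.097, adjusted p = 0.015) was lost in a fit of all 6 groups (adjusted p = 0.27), without A1 culture 3 (adjusted p = 0.20) and without CHO-S culture 1 (adjusted p = 0.056) or 3 (adjusted p = 0.076). St3gal4 was at 59.9, 57.6 and 57.0 CPM in CHO-S, above all cultures of A0 and A1, with -0.20 ± 0.092 in A0 (adjusted p = 0.086) and -0.21 ± 0.063 in A1 (adjusted p = 0.0073, but 0.30 in a fit of all 6 groups).

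The sialidases went in opposite directions at exponential phase. Neu1 was lower than in CHO-S in A0 (-0.43 ± 0.098, adjusted p = 0.002) and in A1 (-0.50 ± 0.097, adjusted p = 0.00011), without overlap, but neither was called in a fit of all 6 groups (adjusted p = 0.071 and 0.079). Neu3 was higher in A0 (0.79 ± 0.248, adjusted p = 0.016) and in A1 (0.67 ± 0.27, adjusted p = 0.038). Its call was lost in A0 without CHO-S culture 2 (adjusted p = 0.077) or 3 (adjusted p = 0.065). In A1 it was lost with DESeq2 (adjusted p = 0.15), when any single culture of A1 was left out (adjusted p = 0.053 to 0.13) and without CHO-S culture 2 (adjusted p = 0.12) or 3 (adjusted p = 0.099).

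At stationary phase, 1 member was higher in A0 than in CHO-S (Gne), where 20.7% of 19007 genes were higher, and 3 were lower (Cmas, St3gal1 and St3gal3), where 19.3% were lower. Without CHO-S culture 1, 2 members were higher (Gne and Nans), where 28% of 18990 genes were higher, and 4 were lower (Cmas, St3gal1, St3gal3 and St3gal4), where 23.8% were lower. The estimate of spread over all genes was 0.195 with all cultures and 0.108 without that culture, which left 2 CHO-S cultures. St3gal1 was at 41.3, 81.6 and 75.2 CPM in CHO-S and 4.22-fold lower in A0 (log2 -2.08 ± 0.206, adjusted p = 3e-05), or 4.72-fold lower without CHO-S culture 1 (-2.24 ± 0.11, adjusted p = 1.4e-08). St3gal3 was 2.12-fold lower in A0 (-1.09 ± 0.249, adjusted p = 0.0057) and 2.45-fold lower without CHO-S culture 1 (-1.29 ± 0.118, adjusted p = 2.2e-06), and was not called without CHO-S culture 2 (-0.77, adjusted p = 0.07). Gne was at 6.19, 12.1 and 11.2 CPM in CHO-S, where culture 1 had 6 counts, and was higher in A0 by 0.92 ± 0.192 (adjusted p = 0.0033), or 0.86 ± 0.146 without that culture (adjusted p = 0.00035). Cmas was at 255, 160 and 159 CPM in CHO-S, with -0.78 ± 0.189 in A0 (adjusted p = 0.0079) and -0.50 ± 0.084 without culture 1 (adjusted p = 0.00031). Nans was at 0.41 ± 0.163 (adjusted p = 0.072) and 0.33 ± 0.105 without culture 1 (adjusted p = 0.019). With all cultures it was called by DESeq2 (0.42, adjusted p = 0.025), with filterByExpr (0.42, adjusted p = 0.046) and in a fit of all 6 groups (0.40, adjusted p = 0.0076). St3gal4 was at -0.36 ± 0.219 (adjusted p = 0.22) and -0.55 ± 0.092 without culture 1 (adjusted p = 0.00031), and was called with all cultures in the fit of all 6 groups (-0.40, adjusted p = 0.02).

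In A1 at stationary phase, 2 members were higher than in CHO-S (Gne and Nans), where 18.2% of 18243 genes were higher, and 2 were lower (Cmas and St3gal1), where 16.6% were lower. Gne (0.88 ± 0.168, adjusted p = 0.0044) and Cmas (-1.11 ± 0.22, adjusted p = 0.0054) kept their calls without any one culture. The calls of St3gal1 (-0.75 ± 0.232, adjusted p = 0.036) and Nans (0.52 ± 0.16, adjusted p = 0.034) were lost without any one culture except CHO-S culture 1 (adjusted p = 0.059 to 0.15). Without CHO-S culture 1, 3 members were higher (Gne, Nans and Slc35a1), where 29.9% of 18204 genes were higher, and 5 were lower (Cmas, St3gal1, St3gal3, St3gal4 and Neu1), where 27.5% were lower. The estimate of spread over all genes was 0.194 with all cultures and 0.0549 without that culture, which left 2 CHO-S cultures. The values were then 0.79 ± 0.132 for Gne (adjusted p = 1.7e-07), 0.41 ± 0.072 for Nans (adjusted p = 4.3e-07), -0.87 ± 0.072 for Cmas (adjusted p = 5.1e-19) and -0.98 ± 0.085 for St3gal1 (adjusted p = 3.8e-18). Those of St3gal3, St3gal4 and Slc35a1 were -0.75 ± 0.088 (adjusted p = 3e-12), -0.53 ± 0.084 (adjusted p = 5.1e-08) and 0.50 ± 0.108 (adjusted p = 4e-05). With all cultures, the fit of all 6 groups called St3gal3 (-0.54, adjusted p = 0.026) and Slc35a1 (0.44, adjusted p = 0.013). Neu1 was 2.34-fold lower in A1 without CHO-S culture 1 (-1.22 ± 0.088, adjusted p = 1.7e-22) and at -0.92 ± 0.358 with it (adjusted p = 0.079). With all cultures Neu1 was called in the fit of all 6 groups (-0.98, adjusted p = 6e-04). In A0 Neu1 overlapped with CHO-S, at -0.24 ± 0.148 without CHO-S culture 1 (adjusted p = 0.20) and 0.04 ± 0.323 with it (adjusted p = 0.94). Those 2 changes share the CHO-S cultures.

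The genes around the members were taken as 6 lists of 41 genes, of which 38 were analysed here. Their counts stand beside the shares of all genes tested, 12% higher and 13.8% lower in A1 at exponential phase and 16% and 17.7% at stationary phase, and beside medians over all genes of -0.04 and -0.002. Of 5 other sialic acid supply genes, 1 was higher in A1 at exponential phase and 2 at stationary phase, with 0 lower at either phase, and the median log2 fold changes were 0.40 and 0.61. One of these calls, Renbp, a GlcNAc epimerase, rests on 2 counts over all A0 and 10 over all A1 stationary cultures, and no fold is given. Of 5 genes of the hexosamine pathway to UDP-GlcNAc, 1 was higher and 1 lower at exponential phase and 0 higher and 1 lower at stationary phase (medians 0.08 and 0.12). Of 6 galactosylation genes, which make the acceptor, 1 was higher and 1 lower at exponential phase and 2 higher and 1 lower at stationary phase (medians 0.10 and 0.15).

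Of the 16 other sialyltransferases, 7 were at or under 3 counts in every culture compared, among them St6gal2, which had 0 counts in all 20 cultures. Of the 8 that could be compared between A1 and A0, 1 was higher and 3 lower at exponential phase, and 2 were higher and 3 lower at stationary phase (medians -0.33 and -0.29, which do not depend on the value of St8sia1 as long as it is below them), against the same shares and medians of all genes. St6gal1, which attaches sialic acid in a linkage that CHO cells are known not to make, had 18 or 19 counts in each A0 culture and 1, 2 and 5 counts in the A1 cultures at exponential phase. The A0 cultures there, summed from 2 libraries each, held 23065838 to 26584337 reads on genes and the A1 cultures 11823294 to 13060749. In CPM, St6gal1 was at 0.738 ± 0.019 in A0 and 0.211 ± 0.154 in A1. St6gal1 was lower in A1 at exponential (-1.75 ± 0.479, adjusted p = 0.012) and stationary phase (-1.42 ± 0.419, adjusted p = 0.015), and had 0 counts in CHO-S. St8sia1, a ganglioside sialyltransferase, had 4 to 12 counts in the A0 exponential cultures, 2 to 8 in the A0 stationary cultures and 0 in every culture of A1 and CHO-S. It was called at both phases (adjusted p = 0.0055 and 0.0056), and no fold is given at these counts.

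Of the 2 genes of sialic acid O-acetylation and its removal, 1 was higher and 1 lower in A1 at exponential phase. At stationary phase 0 were higher and 1 was lower, beside the same shares of all genes. Siae, the esterase that removes O-acetyl groups from sialic acid, was at 110, 101, 105 and 102 CPM in A0 and at 61.6, 57.5 and 65.0 CPM in A1 at exponential phase. At stationary phase it was at 136, 137, 111 and 109 CPM in A0 and at 55.2, 59.9 and 63.6 CPM in A1. It was lower in A1 at both phases without overlap (-0.77 ± 0.09, adjusted p = 2.4e-05, and -1.06 ± 0.101, adjusted p = 3e-06). Casd1, which adds the O-acetyl group and was named after its values were seen, was higher in A1 at exponential phase (0.43 ± 0.12, adjusted p = 0.015) and overlapped at stationary phase. Of the 3 comparable other sialidases and lysosomal partners, 2 were higher and 1 lower at exponential phase, and 1 was higher and 1 lower at stationary phase. Ctsa and Glb1, whose proteins form the lysosomal complex of Neu1 and which were also named after their values were seen, differed in direction. Ctsa was higher in A1 at stationary phase (0.54 ± 0.086, adjusted p = 0.00023), where Neu1 was lower, and Glb1 was lower (-0.57 ± 0.092, adjusted p = 0.00029). Both differed in the same directions at exponential phase, where Neu1 overlapped between the lines. There Ctsa was at 384 ± 22.6 CPM in A0 and 475 ± 34.5 CPM in A1, and Glb1 at 105 ± 12.7 and 76 ± 3.89 CPM.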

How the data were processed

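Polyadenylated RNA of 24 libraries was sequenced from stranded libraries. Per the labels and the methods, the authors aligned reads with STAR (2.5.4b) to the Chinese hamster genome C_griseus_v1.0, counted them per gene with HTSeq-count (0.7.2) and deposited whole-number counts without normalization. Unmapped reads were removed from the deposited reads by the authors. The strand setting of the counting is not given in the sources used here, so overlapping and antisense genes are uncertain. The 5 summary rows, 31.8% to 49.8% of the reads per library, were left out of library sizes and tests.

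The 8 A0 exponential libraries carry 4 culture numbers (second libraries are marked RLT or Duplicate) and were summed per number. No 2 libraries of a group agreed within sampling noise (chi-square per degree of freedom at least 1.72). Libraries summed as 1 culture differed too. The first and RLT libraries of culture 1 were at 29, against 2.54 between the first libraries of cultures 1 and 2, and the pairs of cultures 2, 3 and 4 were at 6.38, 3.29 and 2.88. The two-sided quasi-likelihood test of edgeR (4.0.16, in R 4.3.3) with TMM scaling and Benjamini-Hochberg adjustment was run on genes that had 1 count or more in 2 or more samples and varied among them. Each fit held the groups of its comparison only, or 4 groups for the interaction. The methods used DESeq2, which served here as an alternative (1.42.0), beside RLE scaling, filterByExpr, a fit of all 6 groups, a replicate block, the first A0 libraries only, and leaving out each culture. Genes at or under 3 counts in every culture compared were not given a fold. The code of the test was run on simulated counts, with the same spread for all genes and large changes only. That run does not measure the error rates of the test in these data.

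Same-numbered cultures deviated together only in A0 between phases (r = 0.436, 0.32, 0.274 and 0.189 over 10588 genes). The labels do not say what a number marks. The members and lists were chosen with earlier results of these data known. All 10 members were named, and other list genes where they passed the threshold with at least a 2-fold change in A1 against A0 at either phase. Counting intervals cover counting error only. Some items are not reported here.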

Additional observations from a re-analysis of the deposited data

Results flagged for a closer look

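Neu1 was marked because the change of A1 against A0 differed between growth phases in the test of the difference itself. The value was -0.91 on the log2 scale at stationary minus exponential phase (SE 0.196, adjusted p = 0.0044 from edgeR). Neu1 was at 20.8 ± 1.49 CPM in A0 (SD, n = 4) and 20 ± 3.32 CPM in A1 (SD, n = 3) at exponential phase, and at 62.8 ± 11.9 and 32.3 ± 4.08 CPM at stationary phase.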

How the results depend on the processing

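Of 90 values (9 genes in 10 comparisons), 41 changed neither direction nor call in any alternative run, and 15 changed sign in at least 1. Of 1152 alternative values, 1036 kept both, 58 lost the call, 33 gained it and 25 changed sign. The number of members called for the interaction of line and phase was 1, but 0 in a fit of all 6 groups and 2 with a replicate block. For A1 against CHO-S at stationary phase it was 4, but 7 in the fit of all 6 groups, 2 with a replicate block and 2 to 8 without 1 culture, with 8 without CHO-S stationary culture 1. From exponential to stationary phase, A0 had 3 calls, 5 with a replicate block and 2 to 5 without 1 culture (5 without exponential culture 4). A1 had 4 calls, 2 with DESeq2, 2 in the fit of all 6 groups and 2 to 4 without 1 culture (2 without exponential culture 2 or stationary culture 1). CHO-S had 1 call, 2 in the fit of all 6 groups, 0 with a replicate block and 0 to 5 without 1 culture, with 5 without stationary culture 1. Same-numbered cultures were paired only in A0 between phases, so the other block results rest on a shared number alone. The block changed single calls also in A1 against A0 at exponential phase, where St3gal3 was called (0.38, adjusted p = 0.045), and in A0 against CHO-S at exponential phase, where Slc35a1 was called (-0.26, adjusted p = 0.043). The cause of these changes was not tested.

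The values that changed sign lay near 0 and had no call, apart from St3gal4 in CHO-S between phases, which was -0.08 with all cultures and called at 0.149 without stationary culture 1. When 1 culture at a time was left out, the values in CHO-S between phases ran from -0.276 to 0.149 for St3gal4, -0.17 to 0.019 for Nans and -0.046 to 0.326 for Cmas, with the change of sign without stationary culture 1. For Neu1 of A0 against CHO-S at stationary phase they ran from -0.238, without CHO-S culture 1, to 0.338, and the fit of all 6 groups gave -0.029. For A1 against A0 at exponential phase they ran from -0.039 to 0.067 for St3gal4 (-0.032 with a replicate block), -0.128 to 0.001 for Nans, -0.134 to 0.01 for Cmas and -0.174 to 0.059 for Neu1, and Neu3 was 0.017 with the first A0 libraries. For Gne at stationary phase they ran from -0.075 to 0.056. In the interaction they ran from -0.008 to 0.125 for St3gal4 and -0.02 to 0.111 for Slc35a1, which was -0.043 with the first A0 libraries. Between phases they ran from -0.017 to 0.121 for Cmas in A0, and in A1 from -0.089 to 0.011 for Gne and -0.079 to 0.015 for Nans. Low counts limit Neu3 and every stationary value of CHO-S culture 1, which had 1038026 reads on genes. With 3 or 4 cultures of 1 line per group, the tests do not extend to other amplified lines.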

Other observations

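Of the 5 genes analysed from the hexosamine pathway, which makes the UDP-GlcNAc from which Gne starts, 4 rose and 0 fell from exponential to stationary phase in A0, where 17.7% of all genes rose and 20.1% fell (median log2 fold change 0.53, against 0.001 over all genes). In A1, 3 rose and 1 fell, where 15.6% of all genes rose and 17.8% fell (median 0.31, against 0.03 over all genes). In CHO-S, with all 3 stationary cultures, 0 passed the threshold of edgeR in either direction, where 6.81% rose and 6.48% fell (median 0.19, against 0.02 over all genes). Before adjustment, 1 of them was under 0.05 in edgeR, which was Uap1. Without stationary culture 1, where 23.1% of all genes rose and 24.7% fell, this list was not counted. Uap1l1 was at 58.5 to 67.3 CPM at exponential phase in CHO-S and at 26.8, 88 and 91.9 CPM in stationary cultures 1, 2 and 3. Uap1 was at 122 to 131 CPM and at 79.5, 108 and 101 CPM. Both were named after their values were seen. The difference between CHO-S and the other lines was not tested. Gnpnat1, the acetyltransferase of the pathway, named after its values were seen, rose by 0.68 ± 0.11 in A0 (adjusted p = 0.00012 from edgeR) and by 0.31 ± 0.088 in A1 (adjusted p = 0.0069). Nagk, a kinase that returns GlcNAc to this pathway and was also named after its values were seen, rose 2.20-fold in A0 (adjusted p = 6.8e-05) and 1.62-fold in A1 (adjusted p = 0.00032).

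Neu2, the cytosolic sialidase, and St3gal2, a sialyltransferase, both named after their values were seen, differed between the phases in the change of A1 against A0 (-0.69 ± 0.199, adjusted p = 0.031, and -0.50 ± 0.134, adjusted p = 0.021, from edgeR). They were the 1 call among 3 other sialidases and partners and the 1 among 8 other sialyltransferases, and the remaining lists had 0. Over all 20953 genes 3.9% were called lower and 5.04% higher, so nothing particular to the lists is read from these calls. Alternative runs were not made for these genes. Neu2 was at 14.5 ± 1.7 CPM in A0 and 21.5 ± 2.95 CPM in A1 at exponential phase and at 21.5 ± 3.94 and 19.8 ± 2.45 CPM at stationary phase. St3gal2 rose from 35.3 ± 1.84 to 51.7 ± 4.01 CPM in A0, and was at 25.2 ± 1.58 and 26.4 ± 1.78 CPM in A1.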
